A study of Mus musculus with 24 samples.

Results

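Resting cardiac fibroblast markers were followed as 10 genes, Pdgfra, Tcf21, Dpep1, Mfap5, Pi16, Dpt, Lum, Dcn, Gsn and Meox1, among the 46078 genes of the deposited table of unfiltered counts. They were chosen by name, 9 of the 10 by the symbol in the table and Dpep1, which has no symbol there, by its Ensembl identifier. All 10 had reads in every library and were among the 15456 genes tested. The libraries were made from polyadenylated RNA of the ventricular apex of 24 male C57BL/6 mice aged 10 weeks, with hearts taken at day 5 according to the series title. There were 4 groups of 6 mice. WT_PBS mice were wild type, with vehicle (PBS) and no diphtheria toxin, and WT_PYR mice were wild type, with pyridostigmine and no toxin. DTR_PBS mice had toxin-induced injury and vehicle, and DTR_PYR mice had toxin-induced injury and pyridostigmine, a drug that inhibits the cholinesterases that break down acetylcholine. DTR stands for diphtheria toxin receptor, and mouse cells that carry it can be killed by the toxin. The sources used here do not give the cells that carried the receptor, the promoter behind it or the doses of toxin and drug. Genotype and toxin moved together, so their parts cannot be told apart, and "injury" below means both.

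Fibroblasts lie between the muscle cells of the heart and make and maintain its collagen-rich matrix. In the uninjured heart they are marked by the receptor Pdgfra and the transcription factor Tcf21, and by a set of matrix and secreted proteins. After injury many divide, take on an activated state with genes such as Postn and Cthrc1, and lay down scar. The data are from whole tissue, so fewer cells of a type and less RNA per cell cannot be told apart.

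The promoter sequences below are shown for 3 members that changed with injury under vehicle, Pdgfra, which rose, and Dpep1 and Gsn, which fell. Each is the 250 bases before the RefSeq start site in build GRCm38.p6, on the plus strand, written 5′ to 3′. The Pdgfra stretch is chr5:75152001-75152250, the Dpep1 stretch is chr8:123185985-123186234, and the Gsn stretch is chr2:35256109-35256358, the most upstream of 3 Gsn promoters in the table. Capitals mark the only searched motifs found in them, CATTCC (the reverse complement of GGAATG, bound by TEAD factors) in Dpep1 and the E-box CAGCTG in Gsn.
Pdgfra: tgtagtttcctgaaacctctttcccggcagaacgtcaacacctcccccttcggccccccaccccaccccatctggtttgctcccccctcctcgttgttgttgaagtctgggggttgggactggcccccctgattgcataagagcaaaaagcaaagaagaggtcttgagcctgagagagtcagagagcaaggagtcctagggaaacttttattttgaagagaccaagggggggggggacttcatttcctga
Dpep1: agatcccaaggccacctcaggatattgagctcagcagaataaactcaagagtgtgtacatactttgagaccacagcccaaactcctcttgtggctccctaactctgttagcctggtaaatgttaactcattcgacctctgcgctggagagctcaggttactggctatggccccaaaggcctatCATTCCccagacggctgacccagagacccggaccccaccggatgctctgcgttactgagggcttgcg
Gsn: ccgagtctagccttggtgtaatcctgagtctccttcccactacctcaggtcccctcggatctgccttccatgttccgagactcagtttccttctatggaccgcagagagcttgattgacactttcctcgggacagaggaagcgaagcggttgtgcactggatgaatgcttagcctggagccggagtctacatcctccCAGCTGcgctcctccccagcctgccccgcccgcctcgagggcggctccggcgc

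The promoter table held 8 promoters of 6 members, for Dpt, Pdgfra, Dpep1, Tcf21 and Pi16 with 1 each and Gsn with 3. The E-box CAGCTG, a core bound by basic helix-loop-helix factors such as Tcf21, stood in 5 of these 8 windows of 300 bases and in 16.3% of all 32851 promoters of that length. Those 5 windows belonged to Dpt, Dpep1, Pi16 and Gsn, and the Pdgfra and Tcf21 windows held none. GGAATG stood in 1 member window (Dpep1) against 14.7% of all promoters, and TATAAA in 1 (Dpt) against 13.6%. TGANTCA, the AP-1 motif, stood in 0 of the 8 against 7.81%, CAGACA, a SMAD element, in 0 against 21.0%, and the homeodomain core TAATTA in 0 against 5.29%. Both strands were searched, and a match describes these letters only.

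Library totals ran from 1.88 to 37.8 M counts, 3 libraries had under 3 M (DTR_PBS 4, DTR_PYR 2 and DTR_PYR 3) and 4 had over 30 M (WT_PBS 1, WT_PBS 6, DTR_PBS 1 and DTR_PYR 5). On the first principal component of genes outside every list used here, which held 43.7% of the variance, the 12 uninjured libraries lay between -56.0 and -34.9. DTR_PYR 4, 5 and 6 lay at -35.0, -25.2 and -20.7, beside the uninjured libraries, and the other 9 injured libraries lay between 29.6 and 112. For injury under pyridostigmine, the counts of called members and of other resident fibroblast genes are therefore also given without those 3 libraries. The estimates in the gene paragraphs include them. The animal tags end in U or V, and the labels do not say what the letter means. Each uninjured group had 4 U and 2 V animals, each injured group had 2 U and 4 V, and DTR_PYR 4, 5 and 6 were all V.

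Injury under vehicle moved the members in opposite directions. Mfap5, Meox1 and Pdgfra rose, Gsn and Dpep1 fell, and Tcf21, Pi16, Dpt, Lum and Dcn did not pass the test. The call, at an adjusted p under 0.05 in the edgeR quasi-likelihood test over all genes, was thus made for 5 of 10 members, beside 42.9% of all genes tested. The 3 rises stand beside 21.3% of all genes and the 2 falls beside 21.6%. The median log2 fold change of the members was 0.01, and that of all genes tested was also 0.01. The 6 DTR_PBS and 6 WT_PBS libraries did not overlap for any of the 5 called members, a separation that 22.2% of all genes showed. Levels below are CPM, the count of a gene scaled to a common library size after trimmed-mean (TMM) scaling, and fold changes are on the log2 scale with their SE.

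**Figure D1:**
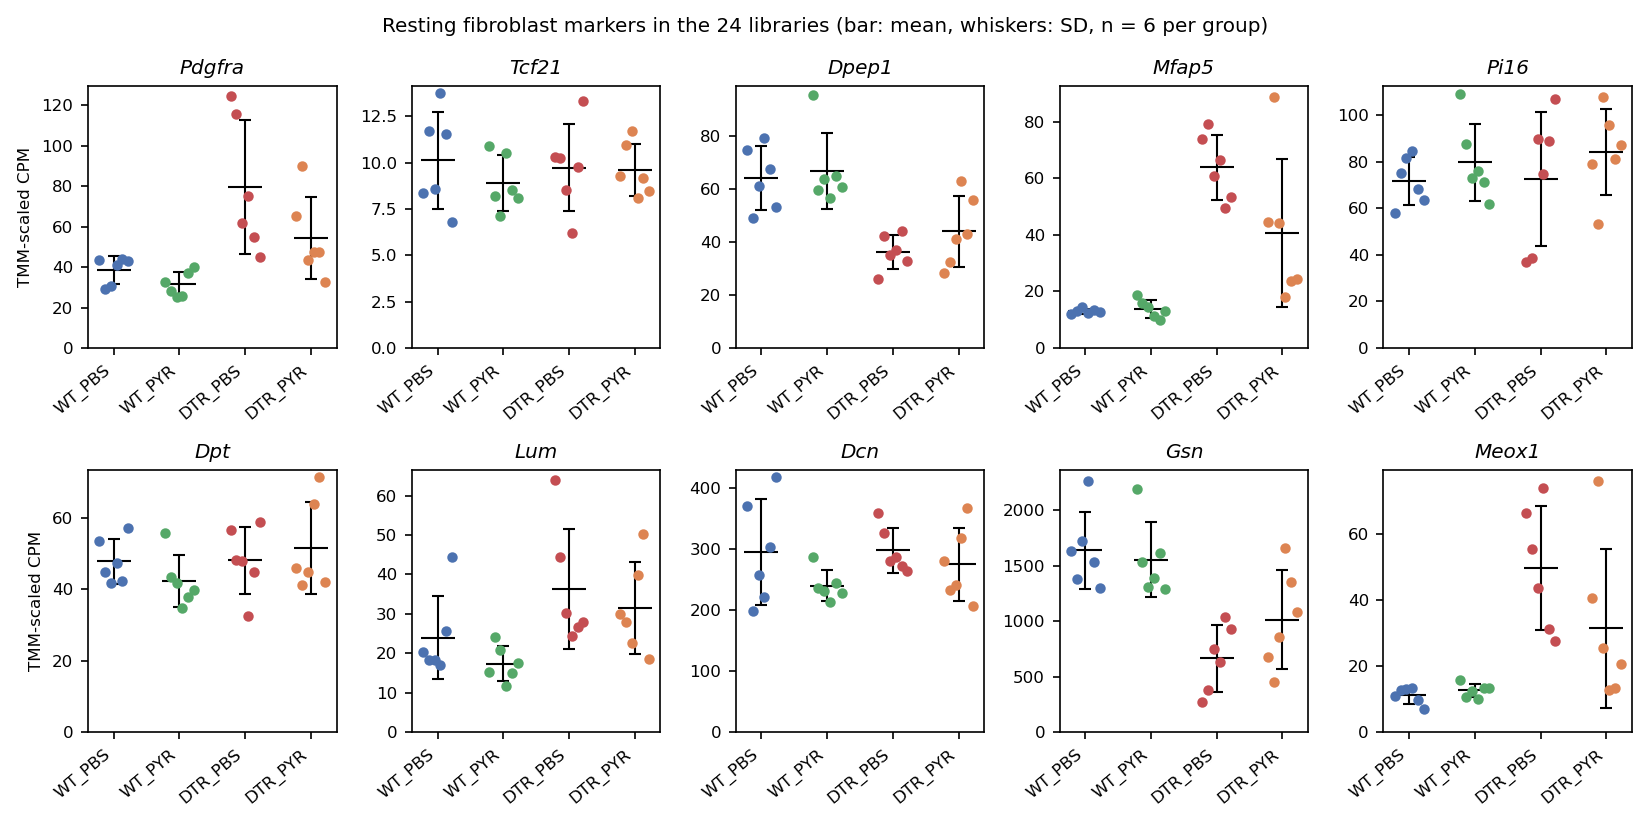
TMM-scaled CPM (vertical axes, from 0) of the 10 members in each library, by group; points are libraries, bars are means and whiskers SD (n = 6 per group). Mfap5 lies between 9.88 and 18.6 CPM in the uninjured libraries and between 49.5 and 79.3 in DTR_PBS, while Tcf21 spans 6.21 to 13.8 CPM over all 4 groups.

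Pdgfra (ENSMUSG00000029231, chr5:75152292-75198215 of GRCm38, plus strand) encodes the receptor for platelet-derived growth factors that marks fibroblasts. Its lowest, median and highest levels were 29.1, 42.2 and 44.1 CPM in WT_PBS and 25.3, 30.3 and 40.1 in WT_PYR. They were 45.0, 68.7 and 125 CPM in DTR_PBS and 32.7, 47.3 and 90.0 in DTR_PYR. All 6 DTR_PBS libraries lay above all 6 WT_PBS libraries, the nearest pair being 45.0 and 44.1 CPM, and DTR_PBS 1 and 2 were the highest of the 24 at 125 and 116 CPM. The rise under vehicle was 1.04 (SE 0.24, adjusted p = 0.001, edgeR), from a mean of 38.6 ± 6.90 to 79.6 ± 33.1 CPM (SD, n = 6 each). Under pyridostigmine it was 0.78 (SE 0.24, adjusted p = 0.033), and DTR_PYR 6 lay within the WT_PYR range. That call was kept in 18 of the 24 fits that each left out a library. Every fit that lost it left out a library of the compared groups, WT_PYR 1, 2, 3 or 4 or DTR_PYR 1 or 2. Without DTR_PYR 2 the value was 0.59 (adjusted p = 0.118, edgeR).

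Tcf21 (ENSMUSG00000045680, chr10:22817281-22820174, minus strand) encodes a basic helix-loop-helix factor of the epicardial cells that become fibroblasts. It was the member with the fewest reads, 14 to 480 per library. Its lowest, median and highest levels were 6.82, 10.1 and 13.8 CPM in WT_PBS, 7.12, 8.36 and 10.9 in WT_PYR, 6.21, 10.0 and 13.3 in DTR_PBS and 8.10, 9.21 and 11.7 in DTR_PYR. The groups overlapped in every comparison. The difference was -0.02 with injury under vehicle (95% interval -0.39 to 0.35, adjusted p = 0.935, edgeR) and 0.09 under pyridostigmine (-0.28 to 0.47, adjusted p = 0.779), so a rise to 1.5 times the uninjured level lies outside both intervals.

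Meox1 (ENSMUSG00000001493, chr11:101877510-101894374, minus strand) encodes a homeodomain factor of the embryonic somites, which studies of stressed hearts have also tied to fibroblast activation. Its lowest, median and highest levels were 6.96, 11.8 and 13.5 CPM in WT_PBS and 10.1, 12.8 and 15.8 in WT_PYR. They were 27.6, 49.6 and 74.0 CPM in DTR_PBS and 12.6, 23.0 and 76.0 in DTR_PYR. Every DTR_PBS library was at least at 27.6 CPM, above all uninjured libraries, while DTR_PYR 4 and 5, at 12.6 and 13.4 CPM, lay within the WT_PYR range. Meox1 rose by 2.16 under vehicle (SE 0.34, adjusted p = 4.59e-05, edgeR), 4.48-fold, and by 1.29 under pyridostigmine (SE 0.34, adjusted p = 0.0158). The second call was lost without DTR_PYR 2 (0.82, adjusted p = 0.0779).

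Mfap5 (ENSMUSG00000030116, chr6:122505845-122529290, plus strand) encodes a microfibril-associated glycoprotein that binds fibrillin. In WT_PBS its lowest, median and highest levels were 11.9, 12.9 and 14.5 CPM, and in WT_PYR they were 9.88, 13.8 and 18.6. They were 49.5, 63.7 and 79.3 CPM in DTR_PBS and 18.1, 34.2 and 88.8 in DTR_PYR. The lowest DTR_PBS library was above the highest of the 12 uninjured ones, and only DTR_PYR 4 of the 12 injured libraries, at 18.1 CPM, lay within the uninjured range. The rise under vehicle was 2.31 (SE 0.27, adjusted p = 6.58e-06, edgeR), 4.95-fold, the largest fold change and smallest p among the members. Under pyridostigmine it was 1.52 (SE 0.27, adjusted p = 0.00138), called with any single library left out.

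Dpt (ENSMUSG00000026574, chr1:164796644-164824266, plus strand) encodes dermatopontin, a small matrix protein that binds decorin and aids collagen fibril assembly. Dpt had lowest, median and highest levels of 41.8, 46.1 and 57.2 CPM in WT_PBS, 34.8, 40.7 and 55.8 in WT_PYR, 32.4, 48.1 and 58.7 in DTR_PBS and 41.1, 45.4 and 71.5 in DTR_PYR. All groups overlapped, and DTR_PYR 4 and 5, at 63.9 and 71.5 CPM, were the highest of the 24. The differences were 0.01 with injury under vehicle (95% interval -0.30 to 0.32, adjusted p = 0.957, edgeR) and 0.30 under pyridostigmine (-0.02 to 0.61, adjusted p = 0.217).

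Lum and Dcn encode lumican and decorin, small leucine-rich proteoglycans that coat collagen fibrils and set their spacing. They are neighbours on chromosome 10, Dcn at chr10:97479609-97518143 (ENSMUSG00000019929) and Lum at chr10:97565128-97572703 (ENSMUSG00000036446), both on the plus strand and 46985 bases apart. Lum was at 17.0, 19.2 and 44.4 CPM (lowest, median, highest) in WT_PBS, 11.7, 16.3 and 24.1 in WT_PYR, 24.4, 29.0 and 63.9 in DTR_PBS and 18.6, 28.9 and 50.1 in DTR_PYR. The Lum groups overlapped in each comparison. WT_PBS 6 stood at 44.4 CPM and the next highest WT_PBS library at 25.7, which was also above the lowest DTR_PBS library at 24.4. The difference of Lum was 0.61 under vehicle (SE 0.27, adjusted p = 0.0735, edgeR), and without WT_PBS 6 it was 0.89 (adjusted p = 0.00731). Under pyridostigmine Lum rose by 0.87 (SE 0.28, adjusted p = 0.039, edgeR), a call kept in 16 of the 24 fits that each left out a library. Every fit that lost it left out a library of the compared groups, WT_PYR 1, 4, 5 or 6 or DTR_PYR 1, 2, 4 or 5. Fits that left out a library of the vehicle groups kept both compared groups whole.

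Dcn was at 197, 280 and 418 CPM (lowest, median, highest) in WT_PBS, 213, 234 and 286 in WT_PYR, 263, 283 and 359 in DTR_PBS and 206, 261 and 367 in DTR_PYR. The groups overlapped throughout, and the difference was 0.01 under vehicle (95% interval -0.32 to 0.35, adjusted p = 0.956, edgeR) and 0.20 under pyridostigmine (-0.14 to 0.53, adjusted p = 0.457). The order of Dcn levels followed depth at its top. The 4 libraries of over 30 M counts held the 4 highest Dcn levels of all 24, 359 to 418 CPM, and the other 20 libraries held 197 to 325 CPM. The same 4 libraries held 3 of the 4 highest Lum levels and 2 of the 4 highest Dpt levels. They held none of the 4 highest Tcf21, Pi16 or Gsn levels. Without those 4 libraries Dcn remained uncalled, at 0.22 under vehicle (adjusted p = 0.268) and 0.10 under pyridostigmine (adjusted p = 0.658). Lum then passed in both arms, at 0.66 (adjusted p = 0.0342) and 0.69 (adjusted p = 0.0265).

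Pi16 (ENSMUSG00000024011, chr17:29317680-29330593, plus strand) encodes a cysteine-rich secretory family protein that marks fibroblasts of the adventitia in many tissues. From lowest through median to highest, its levels were 57.8, 71.8 and 84.4 CPM in WT_PBS, 61.6, 74.5 and 109 in WT_PYR, 37.1, 81.6 and 107 in DTR_PBS and 53.3, 84.3 and 108 in DTR_PYR. The DTR_PBS libraries lay on both sides of the WT_PBS range, DTR_PBS 1 and 2 below it at 37.1 and 38.7 CPM and DTR_PBS 3, 5 and 6 above it at 89.6, 88.6 and 107. The mean difference under vehicle was 0.01 (95% interval -0.41 to 0.44, adjusted p = 0.972, edgeR), over a SD of 28.8 CPM in DTR_PBS and 10.4 in WT_PBS. Under pyridostigmine it was 0.07 (-0.35 to 0.50, adjusted p = 0.853).

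Dpep1 (ENSMUSG00000019278, chr8:123186242-123201812, plus strand) encodes a membrane dipeptidase. Dpep1 had lowest, median and highest levels of 48.9, 64.4 and 79.3 CPM in WT_PBS and 56.6, 62.3 and 95.5 in WT_PYR. They were 26.1, 36.0 and 44.1 CPM in DTR_PBS and 28.4, 42.1 and 63.2 in DTR_PYR. All DTR_PBS libraries lay below all WT_PBS libraries, and of the DTR_PYR libraries DTR_PYR 4 alone, at 63.2 CPM, lay within the WT_PYR range. Dpep1 fell by 0.83 under vehicle (SE 0.18, adjusted p = 0.000815, edgeR), 1.78-fold, and by 0.60 under pyridostigmine (SE 0.18, adjusted p = 0.0346). The second call was kept in 19 of the 24 fits that each left out a library. Every fit that lost it left out a library of the compared groups, WT_PYR 1 or 5 or DTR_PYR 1, 2 or 3.

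Gsn (ENSMUSG00000026879, chr2:35256380-35307892, plus strand) encodes gelsolin, which severs and caps actin filaments and is made by muscle as well as fibroblasts. It was the most abundant member, at 1295, 1583 and 2264 CPM (lowest, median, highest) in WT_PBS and 1289, 1460 and 2195 in WT_PYR. It was at 268, 690 and 1041 CPM in DTR_PBS and 450, 969 and 1656 in DTR_PYR. No DTR_PBS library reached the lowest WT_PBS level, whereas DTR_PYR 4 and 5, at 1656 and 1353 CPM, lay within the WT_PYR range. Gsn fell by 1.30 under vehicle (SE 0.29, adjusted p = 0.000971, edgeR), 2.46-fold. The difference under pyridostigmine was -0.62 (SE 0.29, adjusted p = 0.154).

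Because of Gsn, the summed level of the 10 members was lower in DTR_PBS, 1085 to 1662 CPM against 1833 to 2794 in WT_PBS. Gsn alone held 64.7% to 81.0% of that sum in WT_PBS and 24.6% to 62.6% in DTR_PBS. The other 9 members summed to 451 to 706 CPM in WT_PBS (median 558) and 621 to 818 in DTR_PBS (median 667). The sum over all 10 thus moved down with its most abundant gene. The sum of the other 9 had a higher median in DTR_PBS, with overlapping groups, and the difference was not tested.

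**Figure D2:**
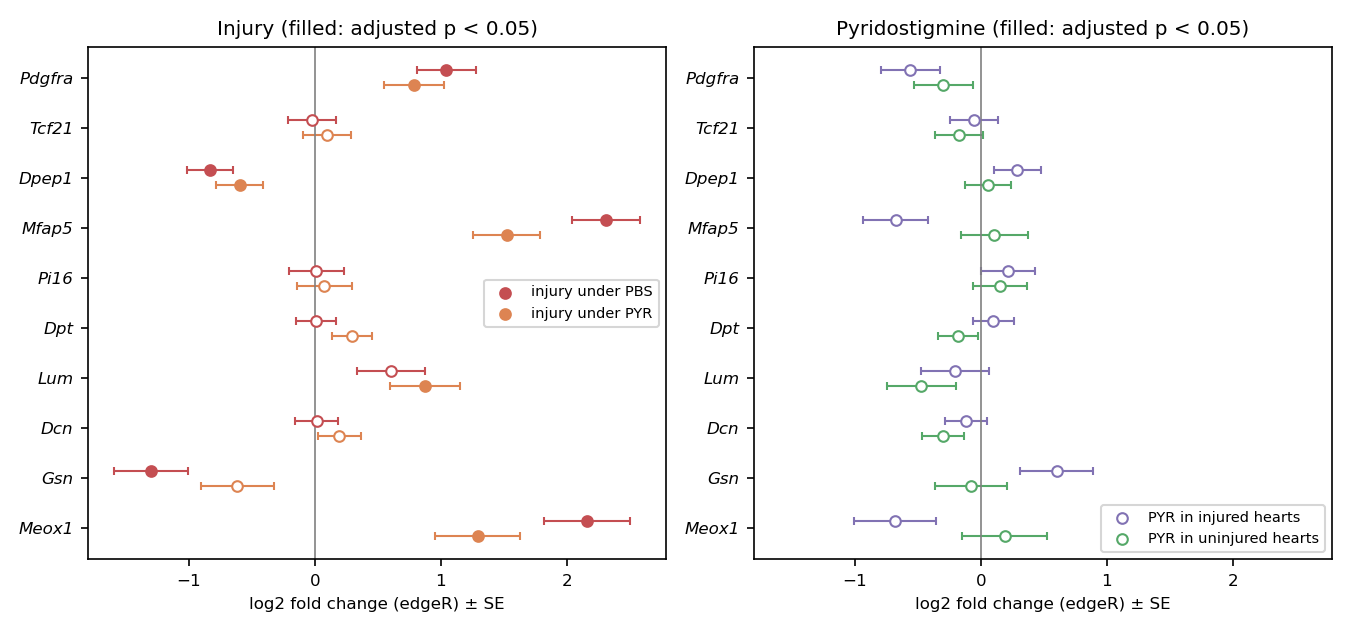
Log2 fold changes with SE (horizontal axis) of the 10 members from edgeR, for injury under vehicle and under pyridostigmine (left) and for pyridostigmine in injured and uninjured hearts (right); filled points have an adjusted p under 0.05. Mfap5 and Meox1 lie farthest to the right with injury (2.31 and 2.16 under vehicle), Gsn farthest to the left (-1.30), and no point on the right is filled.

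With injury under pyridostigmine, Mfap5, Meox1, Lum and Pdgfra rose and Dpep1 fell. That is 5 of 10 members called, where 12.2% of all genes tested were called, 8.06% up and 4.17% down. The members' median was 0.25 and that of all genes 0.04. No member separated the 2 groups without overlap, beside 5.36% of all genes. DESeq2 also called 5 members, where it called 16.8% of all genes. limma voom called Mfap5 only, beside 5.09% of all genes, and Mfap5 was likewise the only call among libraries of at least 3 M counts, beside 0.647%. Without DTR_PYR 4, 5 and 6 there were 5 calls, 3 up and 2 down, beside 33.0% of all genes, with Gsn at -1.23 (adjusted p = 0.00614, edgeR) in and Lum at 0.63 (adjusted p = 0.124) out. The 2 injury comparisons share no library.

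For the called members the sign was the same among U animals and among V animals in both injury comparisons. Under vehicle the mean log2 difference was 2.46 in U and 2.13 in V for Mfap5, 2.58 and 1.98 for Meox1, and 1.31 and 0.83 for Pdgfra. It was -1.10 and -0.58 for Dpep1 and -2.02 and -1.04 for Gsn. Lum, which was not called under vehicle, gave 0.98 in U and 0.15 in V. Under pyridostigmine the V values, which rest mostly on DTR_PYR 4, 5 and 6, were smaller, 0.77 against 2.29 in U for Mfap5 and 0.59 against 2.09 for Meox1. With the letter as a covariate no call of a member changed.

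Pyridostigmine against vehicle gave no called member. In injured hearts edgeR called 0 of 10 members and 0% of all genes, 4 members had an unadjusted p under 0.05 beside 19.4% of all genes, and DESeq2 called 0, beside 1.55%. By edgeR those 4 were Mfap5 at -0.68 (adjusted p = 0.173), Pdgfra at -0.56 (adjusted p = 0.199), Gsn at 0.60 (adjusted p = 0.252) and Meox1 at -0.68 (adjusted p = 0.254). This comparison shares its DTR_PBS libraries with injury under vehicle and its DTR_PYR libraries with injury under pyridostigmine. The count rested on which libraries entered. Without DTR_PYR 2, whose 76.0 CPM of Meox1 and 88.8 of Mfap5 were the highest of the group, Meox1 (-1.15, adjusted p = 0.015), Mfap5 (-1.06, adjusted p = 0.0121) and Pdgfra (-0.76, adjusted p = 0.0292) were called, beside 15.6% of all genes in that fit. limma voom on all libraries called Mfap5 (-0.96, adjusted p = 0.0155) and Meox1 (-0.99, adjusted p = 0.0385), beside 11.4% of all genes.

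In uninjured hearts pyridostigmine gave 0 called members by edgeR, DESeq2 and limma voom, beside 0% of all genes in edgeR, and 0 members had an unadjusted p under 0.05, beside 3.11% of all genes. The estimates ran from -0.47 for Lum (95% interval -1.01 to 0.07) to 0.19 for Meox1 (-0.47 to 0.85). The interaction, the effect of the drug in injured hearts minus that in uninjured hearts, gave 0 called members by the same 3 tools, again beside 0% of all genes in edgeR. There 1 member had an unadjusted edgeR p under 0.05, Mfap5 at -0.78 (adjusted p = 0.617), beside 7.96% of all genes. Meox1 followed in the edgeR test at -0.87 (adjusted p = 0.644) and Gsn at 0.68 (adjusted p = 0.665).

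**Figure D3:**
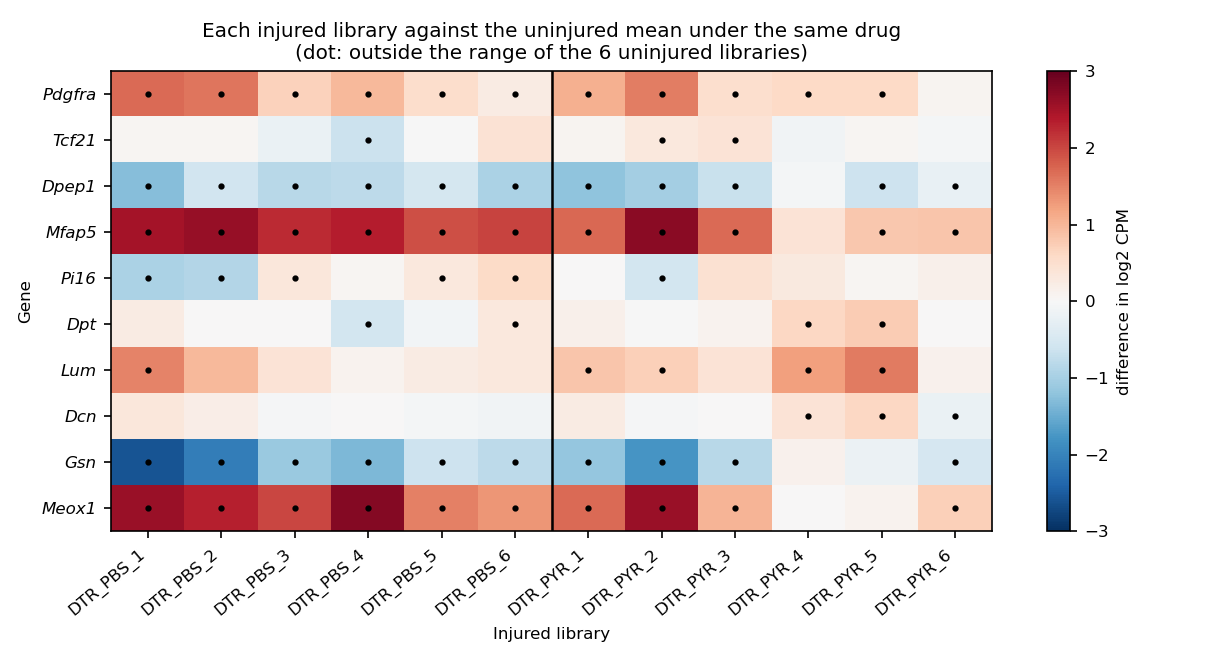
Difference in log2 CPM of each injured library (columns) from the mean of the 6 uninjured libraries under the same drug, for each member (rows), from blue (lower) to red (higher); a dot marks a level outside the range of those 6 uninjured libraries. Mfap5 and Meox1 are red across all DTR_PBS columns, Gsn is darkest blue in DTR_PBS 1 and 2 (268 and 380 CPM), and DTR_PYR 4 and 5 are pale for Gsn and Meox1.

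The injured libraries differed among themselves, and the members moved with that spread in different ways. DTR_PBS 1 and 2 had the lowest summed level of 10 cardiomyocyte markers of all libraries, 26003 and 28126 CPM, and 2312 and 1900 CPM of 10 macrophage markers. They also had the lowest Pi16 and Gsn levels of the 24 libraries and the highest Pdgfra levels. DTR_PYR 4, 5 and 6 held 72743 to 81470 CPM of the cardiomyocyte markers and 316 to 355 CPM of the macrophage markers. In them Mfap5 lay between 18.1 and 24.3 CPM, and in DTR_PYR 1, 2 and 3 it lay between 44.1 and 88.8. Meox1 lay between 12.6 and 20.7 CPM in the former and between 25.3 and 76.0 in the latter.

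Within a library, Mfap5 and Meox1 were also higher relative to Pdgfra with injury under vehicle, a quantity that library scaling does not touch. The mean log2 ratio to Pdgfra went from -1.56 to -0.23 for Mfap5 and from -1.81 to -0.67 for Meox1 between WT_PBS and DTR_PBS, without overlap. For Gsn it went from 5.40 to 3.02 and for Dpep1 from 0.73 to -1.06, again without overlap. For these 2 genes that separation was fixed in advance, since both fell and Pdgfra rose without overlap. Tcf21, Pi16, Dpt and Dcn were lower relative to Pdgfra by 0.91 to 1.05 on the mean, but their libraries overlapped. Under pyridostigmine the libraries overlapped for both Mfap5 and Meox1, whose mean ratios were higher by 0.63 and 0.30 with injury. These ratios are descriptions with no test.

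Divided by the length of the exons in kilobases, levels in WT_PBS ran from 519 CPM per kb for Gsn to 3.60 for Mfap5. In between came Dcn at 50.4, Dpt at 27.7, Dpep1 at 25.8, Pi16 at 11.3, Lum at 9.78, Meox1 at 4.99, Tcf21 at 4.31 and Pdgfra at 3.85. Gsn exceeded Dcn, and Dcn exceeded Dpt, in all 24 libraries. Dpt exceeded Dpep1 in 3 of the 6 WT_PBS libraries, and Tcf21 exceeded Pdgfra in 4 and Pdgfra exceeded Mfap5 in 4, so the order of those neighbours was not fixed. In DTR_PBS Meox1 stood at rank 4 with 22.3 CPM per kb, Mfap5 at rank 5 with 17.8 and Dpep1 at rank 7 with 14.6.

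Of 25 other genes of resident fibroblasts, 6 rose and 8 fell with injury under vehicle, with a median of -0.29 against 0.01 for all genes. The edgeR call was made for 42.9% of all genes in that comparison, 21.3% up and 21.6% down. Scara5, a ferritin receptor, fell by 2.13 (adjusted p = 6.97e-05, edgeR), from 28.6 ± 4.57 to 6.82 ± 2.76 CPM (SD, n = 6 each). Medag (1.72, adjusted p = 0.000145), the basement membrane collagen Col15a1 (1.27, adjusted p = 0.00108) and the stromal antigen Cd248 (1.12, adjusted p = 0.00142) rose. These genes were named for the smallest p, and of the 8 that fell only Scara5 is named. The summed level of the 25 genes was 1211 to 1509 CPM in WT_PBS and 1221 to 1445 in DTR_PBS, so the 2 groups overlapped. Under pyridostigmine 1 of the 25 was called, Medag (1.33, adjusted p = 0.00966), beside 12.2% of all genes. Without DTR_PYR 4, 5 and 6 there were 10, 5 up and 5 down, beside 33.0% of all genes.

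Of 20 genes of activated fibroblasts, 18 rose and 0 fell under vehicle, beside 21.3% and 21.6% of all genes. Their median log2 fold change was 2.94. Cilp rose by 2.27 (adjusted p = 1.48e-06, edgeR), the matricellular genes Ctgf and Thbs1 by 3.57 (adjusted p = 6.58e-06) and 4.41 (adjusted p = 1.09e-05), and the collagen Col8a1 by 2.91 (adjusted p = 1.12e-05). Their summed level was 585 to 1243 CPM in WT_PBS and 4533 to 10749 in DTR_PBS. Mfap5 and Meox1, at 2.31 and 2.16, were thus below the median of this list and above every one of the 25 other resident fibroblast genes. Under pyridostigmine 15 of the 20 rose, with a median of 2.05, where 8.06% of all genes rose. Among libraries of at least 3 M counts 4 did, where 87 of all 15154 genes tested rose.

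**Figure D4:**
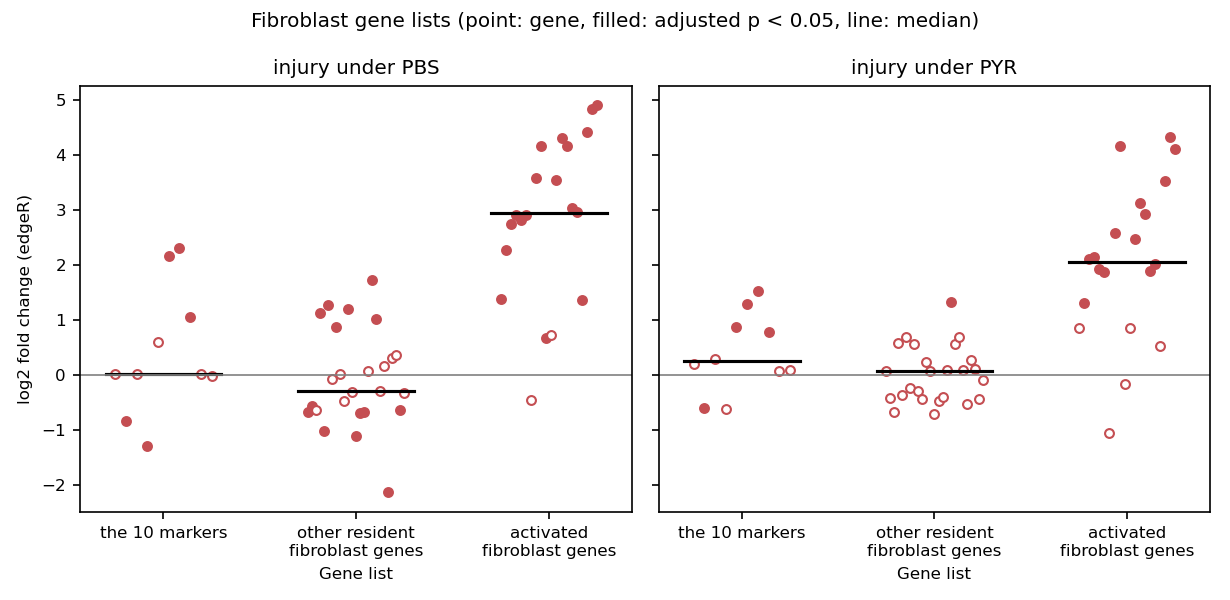
Log2 fold changes (vertical axis) with injury under vehicle (left) and under pyridostigmine (right) for the 10 members, 25 other resident fibroblast genes and 20 activated fibroblast genes; points are genes, filled where the adjusted p is under 0.05, and lines are medians. Under vehicle the medians are 0.01, -0.29 and 2.94.

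Of 23 relatives of the members, other genes of the same families or partners, 20 were tested. Of those 20, 6 rose and 4 fell under vehicle, beside 21.3% and 21.6% of all genes, with a median of 0.06. Bgn, which encodes biglycan, a close relative of decorin, rose by 1.79 (adjusted p = 6.58e-05, edgeR), from 243 ± 37.8 to 840 ± 205 CPM (SD, n = 6 each), where Dcn did not pass. Dpep2, a dipeptidase related to Dpep1, rose by 3.13 (adjusted p = 2.29e-05), where Dpep1 fell. Capg, an actin-capping relative of gelsolin, rose by 2.75 (adjusted p = 7.22e-05), where Gsn fell. Pi15, of the same secretory family as Pi16, rose by 2.53 (adjusted p = 0.000275), from 0.97 to 5.70 CPM. These 4 relatives were named for the smallest p, and the 4 that fell are not named. The cells behind the rises were not tested. Among 4 ligands of the PDGF receptors, Pdgfc rose by 1.52 (adjusted p = 0.000354) and Pdgfb fell by 0.57 (adjusted p = 0.00459), and the other two were not called.

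Marker lists of other cells moved with injury under vehicle too. By the same edgeR call 21.3% of all genes rose and 21.6% fell. All 10 macrophage markers and all 10 cell cycle genes rose, and 6 of 10 cardiomyocyte and 6 of 10 endothelial markers fell. Of 10 mural markers 2 rose and 4 fell, and 0 of 8 mesothelial markers were called by edgeR, with 1 at an unadjusted p under 0.05. Of the smaller lists, 1 Schwann gene rose and 1 fell of 5 tested, 1 of 2 adipocyte genes fell, and 1 atrial gene rose and 1 fell of 3. Cardiomyocyte markers summed to 87471 to 91828 CPM in WT_PBS and 26003 to 71363 in DTR_PBS, and macrophage markers to 238 to 331 and 659 to 2312 CPM. No marker of these 2 lists was at 0 in any group. The part of these cells in the members' differences was not tested.

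The genes most like each member were those of highest Pearson r over the 24 libraries, after each of 13155 genes was centred on its group means. For Mfap5 they were Col1a2 (0.93), Anxa2 (0.92) and Fcgr3 (0.92), and for Meox1 they were Slc15a3 (0.96), Sdc1 (0.95) and Cotl1 (0.95). For Gsn they were Slc25a11, D10Jhu81e and Esrra (0.96 each), and for Pi16 they were Ppif, Uqcr10 and Ccdc85c (0.92 each). Dcn was most like Map2k4 (0.92), Lum like Mettl9 (0.90), Pdgfra like Cyfip1 (0.90), Dpt like Mrps14 (0.86), Dpep1 like Ascc1 (0.79) and Tcf21 like Poll (0.74). No member was among the 20 genes most like another member. Over the 45 pairs of members the median r was -0.01, from -0.80 for Pdgfra with Pi16 to 0.83 for Gsn with Pi16, and Mfap5 with Meox1 gave 0.82. Of these pairs 21 were positive. In the 12 uninjured libraries alone, centred the same way, the median r was 0.27 and 30 of the 45 pairs were positive. There Pdgfra with Pi16 gave -0.40, Gsn with Pi16 0.73 and Mfap5 with Meox1 0.21. The values over 24 libraries share library depth and the spread of injury among libraries, and all these correlations are descriptions with no test.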

How the data were processed

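Counts of reads per Ensembl gene were taken from the unfiltered raw count table that the authors deposited (46078 genes, 24 libraries). The submitters' processing notes name the build GRCm38, the counter HTSeq, the aligners TopHat2 2.1.1, TopHat and Bowtie2, and DESeq and edgeR; which step used which tool, and the annotation release, the sources used here do not give. Per the labels' protocols single-end libraries without strand information were made from polyadenylated RNA, so antisense reads cannot be told apart; genes overlapping the members held at most 32 reads in all where they were in the table. Pi16 and Tcf21 are each overlapped by an antisense gene that had no counts here. AC162182.1 shares 222 exon bases with Pi16, so its reads there cannot be told apart from those of Pi16. Gm10824 shares 0 exon bases with Tcf21. Of 197 genes without a symbol, 193, among them Dpep1, were named by Ensembl identifier. Coordinates are from the GRCm38 annotation, and promoter sequences are from RefSeq.

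The 15456 genes that passed 0.5 CPM in 6 or more libraries were fitted with edgeR 4.0.16 (TMM, glmQLFit, glmQLFTest) in R 4.3.3, with 1 coefficient per group and all 24 libraries. Tests are two-sided, and p-values are Benjamini-Hochberg adjusted over all genes. Intervals are taken from the SE. Alternatives used limma 3.58.1 and DESeq2 1.42.0. Depth ran from 1.88 to 37.8 M counts, which gave 14 reads at the least for a member in a library (Tcf21).

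Each library has its own animal tag and was counted as 1 mouse; whether RNA was extracted in batches is not given, and replicate numbers follow accession order. Named were all members, the counts for 13 other gene lists with up to 4 called genes of the fibroblast, relative and ligand lists by p under vehicle, and the 3 genes most like Mfap5, Meox1, Gsn and Pi16 (1 for the others). The members and lists were chosen with earlier results of these data known.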

Additional observations from a re-analysis of the deposited data

Results flagged for a closer look

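Dpep1 in WT_PYR 1 stood at 95.5 CPM, and the other 5 libraries of that group lay between 56.6 and 64.9 CPM. On the log2 scale, not in CPM, the gap to the nearest library was 0.738 of the range of the group. That is above Dixon's 95% critical value for 6 samples. On that log2 scale it was the 1 group that passed among 40 checked (10 members in 4 groups), and chance gives about 1 in 20. WT_PYR 1 also held the highest Pi16 level of its group, 109 CPM, and the highest Gsn level, 2195 CPM. Without it the Dpep1 fall with injury under pyridostigmine was no longer called (-0.47, adjusted p = 0.0961, edgeR).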

How the results depend on the processing

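Over 35 alternative settings, 163 of 174 counts of called members stayed within 1.5 times the reported count, and of 1740 fold changes of single members 1694 kept their side of the threshold. Of these 1740, the sign changed in 0 of 350 for called differences and in 60 of 1390 for uncalled ones. Total-count scaling, which moved the median of all genes under vehicle from 0.01 to 0.39, raised the count with injury under vehicle to 8 (6 up, 2 down, beside 48.3% of all genes), as Dcn (0.42), Dpt (0.38) and Lum (1.04) passed; relative to that median Dcn and Dpt lay at about the level of all genes. With it, 5 members rose and 0 fell under pyridostigmine, beside 14.7% of all genes called in either direction. There Dpep1 missed (adjusted p = 0.0713, edgeR) and Dpt passed (adjusted p = 0.0483). With injury under pyridostigmine 1 member was called by limma voom, beside 5.09% of all genes, and 1 with libraries of at least 3 M counts, beside 0.647%. The count was 1 to 5 when each library was left out in turn. For pyridostigmine in injured hearts limma voom called 2 members, beside 11.4% of all genes, and libraries of at least 3 M counts gave 2, beside 13.7%. The count was 0 to 3 when each library was left out, with 3 without DTR_PYR 2, beside 15.6% of all genes. Leaving out each library gave 5 to 6 under vehicle, and 0 for pyridostigmine in uninjured hearts and for the interaction. The count under pyridostigmine fell to 2 without WT_PYR 1 (beside 8.06% of all genes called in that fit) or DTR_PYR 1 (4.88%). It fell to 3 without WT_PYR 4 (7.11%) or WT_PYR 5 (8.31%), and to 1 without DTR_PYR 2 (4.92%). The share of all genes thus fell too, from 12.2% with all libraries. The cause of these shifts was not tested. The 5 calls under vehicle held in all 35 settings. Leaving out the 4 deepest libraries was chosen after seeing the data. No paired analysis was possible because the labels give no replicate number. At 14 reads in the shallowest library, small changes of Tcf21 were not detectable.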
